A study of Mus musculus with 4 samples.

Results

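The vasoactive mediator genes followed here make, convert or receive the signals by which endothelium sets the tone of vessels. They are the 9 genes Nos3, Edn1, Ece1, Ednrb, Ptgs1, Ptgis, Ace, Gucy1a1 and Gucy1b1, taken by symbol from a table of 24873 genes, and each symbol matched 1 row. Mice of the genotype Cdh5cre;Mgpflox/flox served in every library. They carry a recombinase under the promoter of the endothelial gene Cdh5 and an Mgp gene with flanking target sites. The paper names the recombinase cre/ERT2 and gave tamoxifen to bring about the deletion of Mgp. Tamoxifen mice were given 75 mg/kg a day over 5 days, beginning when they were 10 weeks old, and the control mice had the same alleles and no tamoxifen. RNA was taken on day 9, and 2 control and 2 tamoxifen libraries were sequenced, each from the pooled cells of 3 mice (controls, or after tamoxifen, below). The cells carry the label Brain tdTomato+ in the sample descriptions, whereas the series design names a CD31+CD45- sort. The value columns bear the letters C and A, and A is read as the tamoxifen group although no sample label has an A, so every direction below rests on that reading. Because the control mice had no tamoxifen, an effect of the drug itself and an effect of the recombination cannot be told apart.

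Endothelial nitric oxide synthase, the product of Nos3, releases a gas that binds soluble guanylate cyclase in the neighbouring mural cells, where the cyclic GMP made by this enzyme relaxes the cell. Endothelin acts against it as a strong constrictor that is cut from its precursor by Ece1, and prostacyclin, made by Ptgs1 or Ptgs2 followed by Ptgis, relaxes the vessel again. In the brain the sources are spread over cell types, since endothelium makes the nitric oxide and the endothelin while pericytes and smooth muscle carry the cyclase and astrocytes carry much of the endothelin receptor B.

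Values are normalized counts, that is, read counts that the authors divided by 1 factor per library. Reads on genes came to 37475154 and 41025014 in the controls and to 35387438 and 49799321 after tamoxifen. Where a gene had no read, up to 3 reads are compatible with it, equal to 4.11 and 3.75 normalized counts in the controls and to 3.25 and 2.16 after tamoxifen, which covers counting error only. All 9 members lay far above this floor in every library. Each log2 fold change below is tamoxifen minus control on log2(normalized count + 1), from limma over 20485 genes whose mean over the libraries reached 10 normalized counts, which includes all 9 members. A gene is called when its Benjamini-Hochberg adjusted p over these genes is under 0.05 and its log2 fold change is over 1 in size. An exact two-sided permutation test of 2 libraries against 2 cannot give less than 0.33 for any one gene, so the adjusted p-values lean on a spread that limma shares between genes.

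The targeted gene Mgp had 1094 and 1352 normalized counts in the controls against 945 and 909 after tamoxifen. Its log2 fold change of -0.39 (SE 0.18, adjusted p = 0.0986) was not called, and it was 0.08 when libraries were rescaled to equal totals and 2.61 relative to endothelial genes. The endothelial identity of the cells was read from 15 genes such as Cdh5, Pecam1 and Flt1. All 15 were called lower, with a median log2 fold change of -2.93. Their summed level was 1321310 and 1351920 normalized counts in the controls, and 234185 and 118922 after tamoxifen, so the marker level differed between the tamoxifen libraries as well as between the groups. Flt1 was the most abundant of them, at 298067 normalized counts on average in the controls and 31949 after tamoxifen, and none was at or under 3 reads in a library. In bulk RNA, fewer cells of a type and less RNA per cell cannot be told apart, which touches every value given here.

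Of the 9 members, 5 were called lower (Nos3, Edn1, Ece1, Ptgis and Ace), against 16.0% of all tested genes, and 3 were called higher (Ednrb, Ptgs1 and Gucy1a1), against 28.6%. Together 8 of 9 were called, where 44.7% of all tested genes were. In both tamoxifen libraries the same 5 lay below each control library, as did 39.2% of tested genes, and the same 3 lay higher in both, as did 43.1%. Gucy1b1 was not called, and its groups overlapped. The median log2 fold change of the 9 was -1.38, beside 0.05 over all tested genes. These directions are those of the deposited scale, and relative to endothelial genes Nos3, Ece1, Ptgis and Ace had the opposite sign.

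**Figure D1:**
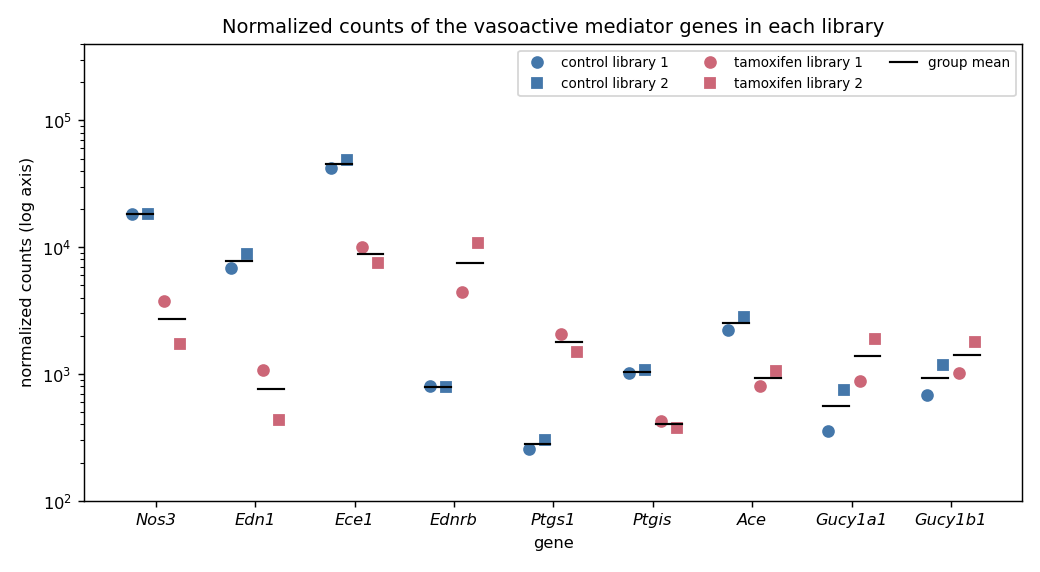
Normalized counts (log axis) of the 9 genes, with control libraries in blue, tamoxifen libraries in red, circles for library 1, squares for library 2 and black lines for group means. Nos3, Edn1, Ece1, Ptgis and Ace lie lower in both tamoxifen libraries, Ednrb, Ptgs1 and Gucy1a1 lie higher, and Gucy1b1 overlaps.

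Nos3 encodes the endothelial synthase. It had 18397 and 18347 normalized counts in the controls, and 3736 and 1724 after tamoxifen. The control libraries were nearly equal, both tamoxifen libraries were far below them, and tamoxifen library 1 held more than tamoxifen library 2. Nos3 fell by 2.86 on the log2 scale (SE 0.32, 95% interval -3.61 to -2.10, adjusted p = 2.2e-04). Without tamoxifen library 1 the log2 fold change was -3.41, and without tamoxifen library 2 it was -2.30.

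The other synthases were split. Nos2, the inducible form, had 4212 and 4279 normalized counts in the controls against 824 and 587 after tamoxifen, and was called lower with -2.61 (SE 0.20, adjusted p = 4.6e-05), though relative to the endothelial list (the endothelial scale) it had 0.39, not called. Nos1, the neuronal form, had 338 and 327 against 516 and 388 and was not called (0.43, SE 0.25, adjusted p = 0.176), with the sign reversed after quantile normalization. So on the deposited scale the inducible form went the way of the endothelial form, and the neuronal form stayed below the limits of a call. On the endothelial scale Nos1 had 3.43 and was called higher, as were 87.5% of all tested genes, whose median there was 3.05. That share and that median belong beside every value on the endothelial scale.

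Genes that feed or hold the synthase were mostly lower. Slc7a1, which carries arginine into the cell, had the highest counts of the nitric oxide and cyclic GMP list, 88381 and 69405 normalized counts in the controls and 21397 and 14202 after tamoxifen (log2 fold change -2.17). Gch1, which starts the synthesis of the cofactor tetrahydrobiopterin, had -2.15, and Spr, which ends it, had -1.20. Spr was no longer called at equal totals, with -0.73, or without tamoxifen library 2, with -0.97. Cav1, whose product binds and restrains the synthase, had -2.41, and Nostrin, which moves the synthase off the membrane, had -2.79. On the endothelial scale these 5 genes had positive values, from 0.21 for Nostrin to 1.80 for Spr, and only Spr was called higher. The opposite direction was seen for Slc7a2, a second arginine carrier, with 2.65. Slc7a2 was not called without tamoxifen library 2, where its log2 fold change was 2.12. Prkg2, a cyclic GMP-dependent kinase, had 13.7 and 6.26 normalized counts in the controls and 1173 and 876 after tamoxifen, a log2 fold change of 6.62. Over the whole list of 27 genes, all tested, 8 were called lower, 8 higher and 11 were not called, and its median log2 fold change was 0.18. Over all tested genes 16.0% were called lower and 28.6% higher, the shares to set beside this and every list count below.

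Soluble guanylate cyclase, the receptor of nitric oxide, is a pair of subunits from Gucy1a1 and Gucy1b1. Gucy1a1 had 356 and 752 normalized counts in the controls, and 875 and 1896 after tamoxifen. The lower tamoxifen library lay only slightly above the higher control library, and within each group library 2 held more than library 1. Gucy1a1 was called higher with 1.31 (SE 0.43, 95% interval 0.30 to 2.32, adjusted p = 0.0320), the largest adjusted p among the called members. It was not called without control library 1 (0.77), without tamoxifen library 1 (1.87) or without tamoxifen library 2 (0.76), nor after quantile normalization (0.96).

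Gucy1b1 had 681 and 1171 normalized counts in the controls, and 1022 and 1782 after tamoxifen. The groups overlapped, since control library 2 exceeded tamoxifen library 1. Its log2 fold change was 0.60 (SE 0.33, 95% interval -0.171 to 1.361, adjusted p = 0.155), and at equal totals it was 1.07 and called. Leaving out 1 library gave 0.20 without control library 1, 0.99 without control library 2, 0.996 without tamoxifen library 1 and 0.19 without tamoxifen library 2. The subunit ratio, Gucy1a1 over Gucy1b1 per kilobase of transcript, was 0.361 and 0.444 in the controls and 0.591 and 0.735 after tamoxifen. Gucy1a1 was thus below Gucy1b1 in all 4 libraries, and nearer to it in both tamoxifen libraries. The ratio was not tested on its own.

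Of the further steps of this pathway, Gucy1a2, another alpha subunit, had 0.80 (SE 0.46, adjusted p = 0.169) with overlapping groups, and its sign reversed after quantile normalization. Prkg1, the kinase that cyclic GMP activates in smooth muscle, had 794 and 789 normalized counts in the controls and 447 and 505 after tamoxifen. Its log2 fold change of -0.74 (SE 0.20, adjusted p = 0.0140) did not reach the size limit, whereas after quantile normalization it was -1.37 and called, and on the endothelial scale it was 2.26 and called higher. Pde5a, which breaks down cyclic GMP, had -0.43 (SE 0.17, adjusted p = 0.0626), not called, and 0.04 at equal totals and 2.57 on the endothelial scale, where it was called.

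Edn1 encodes the precursor of endothelin. It had 6836 and 8795 normalized counts in the controls, and 1076 and 434 after tamoxifen. Both tamoxifen libraries were well below both control libraries, and tamoxifen library 2 was the lowest. Edn1 fell by 3.50 on the log2 scale (SE 0.38, 95% interval -4.38 to -2.63, adjusted p = 1.8e-04), the largest decrease among the 9 members in this fit. Without tamoxifen library 1 it was -4.16, and without tamoxifen library 2 it was -2.85.

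Edn3, which encodes the endothelin with a preference for receptor B, had 4768 and 4811 normalized counts in the controls and 1068 and 518 after tamoxifen, a log2 fold change of -2.69 (SE 0.30, adjusted p = 2.3e-04). Per kilobase of transcript, Edn1 over Edn3 was 2.10 and 2.68 in the controls and 1.48 and 1.23 after tamoxifen. Edn1 thus stayed the more abundant ligand in all 4 libraries, by less in both tamoxifen libraries. Edn2 is not listed in the table.

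Ece1 encodes the enzyme that cuts the precursor to the active peptide. It had 42362 and 48399 normalized counts in the controls, and 10073 and 7532 after tamoxifen. The groups did not overlap, and the tamoxifen libraries differed less from each other than they did for Nos3 or Edn1. Ece1 fell by 2.38 (log2, SE 0.22, 95% interval -2.90 to -1.86, adjusted p = 1.1e-04). Ece2, a related enzyme, was scarce, with 4.11 and 21.3 normalized counts in the controls and 52.0 and 82.0 after tamoxifen. It was called higher with 2.64 (SE 0.78, adjusted p = 0.0209), but not without the trend, after quantile normalization (1.62), without tamoxifen library 1 (2.96) or without tamoxifen library 2 (2.31). Mme, which encodes a peptidase that degrades endothelin among other peptides, went from 86.3 and 70.1 to 3244 and 2288 normalized counts, with a log2 fold change of 5.11.

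Ednrb encodes receptor B, which on endothelium releases nitric oxide and clears endothelin. It had 807 and 786 normalized counts in the controls, and 4421 and 10686 after tamoxifen. The control libraries were close together, and both tamoxifen libraries were far above them, with tamoxifen library 2 highest. Ednrb rose by 3.11 (log2, SE 0.36, 95% interval 2.28 to 3.94, adjusted p = 2.4e-04). Without tamoxifen library 1 it was 3.74, and without tamoxifen library 2 it was 2.47.

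Ednra encodes receptor A, the constrictor receptor of mural cells. Its normalized counts were 348 and 613 in the controls and 903 and 2013 after tamoxifen, a log2 fold change of 1.54 (SE 0.40, adjusted p = 0.0124). Without tamoxifen library 2 it was 0.97, without tamoxifen library 1 it was 2.12, and neither was called, nor was the 1.17 after quantile normalization or the fit without the trend. Per kilobase, Ednra over Ednrb was 0.242 and 0.437 in the controls and 0.115 and 0.106 after tamoxifen, so that receptor A made up less of the receptor RNA in both tamoxifen libraries. Of the 8 genes of the endothelin list, 7 were in the table and tested, and of these 3 were called lower (Edn1, Edn3 and Ece1) and 4 higher (Ece2, Ednra, Ednrb and Mme). Both ligands and the main converting enzyme were lower, and both receptors were higher, although after quantile normalization Ednra and Ece2 were not called and relative to endothelial genes the sign was positive for Edn3 and Ece1.

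Ptgs1 encodes cyclooxygenase 1, the constitutive enzyme that turns arachidonic acid into the prostanoid precursor. It had 258 and 300.4 normalized counts in the controls, and 2081 and 1497 after tamoxifen. Both tamoxifen libraries were far above both control libraries, and tamoxifen library 1 was the higher. Ptgs1 rose by 2.66 (log2, SE 0.23, 95% interval 2.13 to 3.19, adjusted p = 7.5e-05), with the smallest adjusted p of the members.

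Ptgs2, the inducible cyclooxygenase, had 201 and 235 normalized counts in the controls and 982 and 618 after tamoxifen, a log2 fold change of 1.84 (SE 0.29, adjusted p = 1.0e-03). It was not called without tamoxifen library 1, with 1.50. Per kilobase, Ptgs1 exceeded Ptgs2 in every library, by 2.12 and 2.11 times in the controls and by 3.51 and 4.01 times after tamoxifen.

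Ptgis encodes prostacyclin synthase, the step that commits the precursor to prostacyclin. It had 1016 and 1065 normalized counts in the controls, and 424 and 377 after tamoxifen. Both groups were tight and did not overlap. Ptgis fell by 1.38 (log2, SE 0.19, 95% interval -1.83 to -0.93, adjusted p = 6.4e-04), less than Nos3, Edn1 or Ece1 in this fit. At equal totals it was -0.91 and no longer called. After quantile normalization Ptgis had -2.02 and Ece1 -1.65, so their order was the other way. Ptgs1 over Ptgis per kilobase was 0.194 and 0.216 in the controls and 3.77 and 3.05 after tamoxifen. The order of these enzymes at the RNA level was therefore opposite in the groups.

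Tbxas1, which makes thromboxane from the same precursor, had 116 and 83.9 normalized counts in the controls and 185 and 177 after tamoxifen (0.87, SE 0.37, adjusted p = 0.0746), not called. It was called at equal totals (1.33) and on the endothelial scale (3.87), and its sign reversed only after quantile normalization (-0.38). Ptgir, the prostacyclin receptor, had 5.48 and 21.3 against 189 and 162, with a log2 fold change of 3.87 (SE 0.67, adjusted p = 1.7e-03). With 1 tamoxifen library left out it was not called, at 3.76 without library 1 and 3.98 without library 2. Ptgds, which makes prostaglandin D, had 112 and 151 in the controls and 1395 and 2972 after tamoxifen (3.95). The transporters Abcc4 (-2.35) and Slco2a1 (-1.45), which carry prostanoids out of and into cells, were called lower, Slco2a1 not at equal totals (-0.98) nor without tamoxifen library 2 (-1.17). On the endothelial scale both signs turned, with 0.65 for Abcc4, not called, and 1.55 for Slco2a1, called higher (adjusted p = 0.00869). Of the 22 genes of the prostanoid list, 21 were tested, with 4 called lower, 8 higher and 9 not called, and their median log2 fold change was 0.67. Ptgdr is not listed.

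Ace encodes the enzyme that makes angiotensin II and degrades bradykinin on the endothelial surface. It had 2235 and 2809 normalized counts in the controls, and 799 and 1055 after tamoxifen. The groups did not overlap, and here tamoxifen library 2 was the higher, unlike for Nos3, Edn1 and Ece1. Ace fell by 1.45 (log2, SE 0.20, 95% interval -1.92 to -0.98, adjusted p = 6.1e-04), and at equal totals it was -0.98 and not called.

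Agt, which encodes angiotensinogen and in the brain is mainly a gene of astrocytes, had 533 and 713 normalized counts in the controls and 3864 and 5275 after tamoxifen, with a log2 fold change of 2.87 (SE 0.22, adjusted p = 4.8e-05). The receptor gene Agtr1a had 17.8 and 68.8 against 164 and 84.1 (1.71, SE 0.70, adjusted p = 0.0675), not called, and was called with a pseudocount of 5 (1.58), at equal totals (2.17), on the endothelial scale (4.71), with the replicate block (1.71) and without control library 2 (2.65). The bradykinin receptor gene Bdkrb2 had 32.9 and 65.1 against 48.8 and 44.6 (0.01, SE 0.54, adjusted p = 0.990), with overlapping groups and a sign that differed between settings. Agtr2 and Agtr1b are not listed. Of the 16 genes of the angiotensin and kinin list, 12 were tested, with 1 called lower (Ace), 3 higher and 8 not called. Their median log2 fold change was 0.50. The 3 higher genes were Agt and, named after their values were seen, Bdkrb1 and Kng2. Kng2 had 0 reads in both control libraries, so the size of its change is not given. Bdkrb1 was not called after quantile normalization (1.12) or with DESeq2 (2.09). It was also not called without control library 2 (1.50), tamoxifen library 1 (1.98) or tamoxifen library 2 (1.97). Ace was the only gene of this list called lower on the deposited scale.

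**Figure D2:**
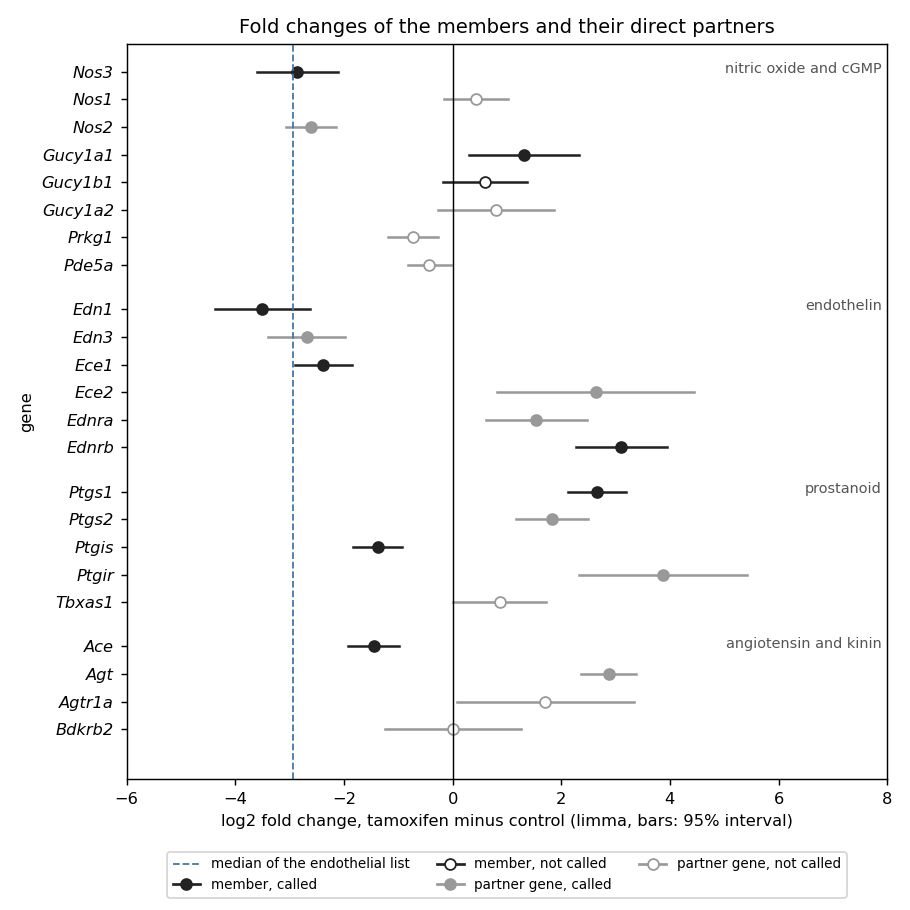
Log2 fold change, tamoxifen minus control, with 95% interval from limma, of the 9 members (black) and their direct partners (grey), filled where called, with the endothelial median of -2.93 as a dashed line. The interval of Nos3 spans that line, as do those of Edn1, Nos2 and Edn3, whereas Ece1, Ptgis and Ace lie to its right, and Ednrb and Ptgs1 lie above 0.

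Outside the 9 members, the pathway lists hold 78 genes, of which 73 are in the table and 69 were tested. Of these, 16 were called lower, 23 higher and 30 not called, beside 16.0% lower and 28.6% higher over all tested genes. Their median log2 fold change was 0.39.

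Levels of different genes were compared per kilobase of the canonical transcript. In the control libraries the order was Ece1 (9384 normalized counts per kilobase on average), Nos3 (4424), Edn1 (3327), Ace (484), Ptgis (473), Gucy1b1 (286), Ednrb (198), Gucy1a1 (118) and Ptgs1 (97.3). In each control library Ece1, Nos3 and Edn1 led in this order, while Ace and Ptgis, and Gucy1a1 and Ptgs1, changed places between the control libraries and so did not differ beyond their spread. In the tamoxifen libraries the order of the means was Ednrb (1876), Ece1 (1820), Nos3 (657), Ptgs1 (624), Gucy1b1 (433), Edn1 (322), Gucy1a1 (296), Ptgis (182) and Ace (178). Of the neighbours in this order only Ece1 and Nos3 kept their places in both tamoxifen libraries, and every other neighbouring pair had its order reversed in 1 of them. Ednrb moved from the rank of 7 to the rank of 1 by the means, and Ptgs1 from 9 to 4.

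A further scale gives each gene relative to the endothelial list, by subtracting in each library the mean log2 value of its 15 genes. This moves the median of all tested genes to 3.05, with 87.5% of genes called higher and 0.0830% called lower, so a positive value is the usual one and a value near 0 marks a gene that moved with the endothelial list. None of the 9 members was called lower on it and 6 were called higher. Nos3 had 0.14 (95% interval -0.84 to 1.13, limma adjusted p = 0.784), Edn1 had -0.50 (-1.62 to 0.62, adjusted p = 0.398), and Ece1 had 0.62 (-0.25 to 1.49, adjusted p = 0.174). These intervals do not exclude a change of either sign, and they are wide enough to hold a change of 1 on the log2 scale for all 3 genes. Ptgis had 1.62 (adjusted p = 0.0188) and Ace had 1.55 (adjusted p = 0.0123), so both were lower by less than the endothelial list was. Ednrb had 6.11, Ptgs1 5.66, Gucy1a1 4.31 and Gucy1b1 3.60 on this scale.

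In the single libraries, Nos3 stood at 28.3% and 27.1% of the geometric mean of the endothelial list in the controls, and at 32.1% and 29.2% after tamoxifen, and so was higher in both tamoxifen libraries. Edn1 stood at 10.5% and 13.0%, then at 9.25% and 7.36%, and so was lower in both tamoxifen libraries. Ece1 stood at 65.2% and 71.4%, then at 86.5% and 127%, and so was higher in both. Nos3 kept within 0.247 on the log2 scale over the 4 libraries, although its normalized counts ranged from 1724 to 18397. Ptgis, at 1.57% in both control libraries, reached 3.65% and 6.39%, and Ace went from 3.44% and 4.14% to 6.87% and 17.9%.

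Marker lists of 12 further cell types were set beside the members. No gene was called lower in them except 1 of the 8 smooth muscle genes, Smtn, which was the most abundant of that list with 16148 normalized counts on average in the controls and 3746 after tamoxifen. Called higher were 3 of 8 pericyte, 2 of 8 smooth muscle, 7 of 7 fibroblast, 8 of 8 astrocyte, 4 of 8 microglia and macrophage, 6 of 8 neuron, 5 of 6 oligodendrocyte, 6 of 6 choroid plexus, 7 of 7 neutrophil, 6 of 6 platelet and megakaryocyte, 8 of 8 pluripotent and 4 of 4 leukocyte genes, beside 28.6% of all tested genes. The medians of the log2 fold change were 0.73 for pericyte, 0.23 for smooth muscle, 3.71 for fibroblast, 3.26 for astrocyte, 1.10 for microglia and macrophage, and 3.53 for neuron genes. They were 2.37 for oligodendrocyte, 3.36 for choroid plexus, 8.49 for neutrophil, 2.86 for platelet and megakaryocyte, 8.82 for pluripotent and 5.20 for leukocyte genes. In no list was a gene at or under 3 reads in both libraries of a group, and in 1 library or another Mag, Mobp, Kcne2, Mpo, Elane and Sall4 were.

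For each member, the list whose geometric mean it followed most closely over the 4 libraries was found among the 13 lists, by the range of the log2 ratio, a measure chosen after the values had been seen. The closest list was the endothelial one for Nos3, Edn1 (range 0.817), Ece1 (0.966) and Ptgis (2.03), the astrocyte list for Ednrb (0.450), the pericyte list for Gucy1a1 (0.714) and Gucy1b1 (0.308), the oligodendrocyte list for Ptgs1 (0.414) and the smooth muscle list for Ace (1.73). The smooth muscle list was nearly as close to Ptgis (2.05), and neither Ptgis nor Ace followed a list within 1.5 on the log2 scale. The ranges rest on 4 libraries of 2 groups.

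Ednrb stood at 71.6% and 52.4% of the astrocyte mean in the controls and at 53.9% and 64.8% after tamoxifen. The summed astrocyte list had 29093 and 34605 normalized counts in the controls and 151021 and 314013 after tamoxifen, Slc1a2 being the most abundant gene with 14581 on average in the controls and 112261 after tamoxifen. All 8 astrocyte genes were higher in tamoxifen library 2 than in tamoxifen library 1, by 1.70 to 2.49 times, and Ednrb was so by 2.42 times. In the controls they differed, since the median of the ratio of library 2 to library 1 was 1.56 for the astrocyte genes and the ratio was 0.974 for Ednrb. The neuron list was nearly as close to Ednrb, with a range of 0.592, and it summed to 659 and 905 normalized counts in the controls and 6554 and 10747 after tamoxifen. Agt was higher in tamoxifen library 2 as well. A sort for CD31+CD45- cells would be expected to leave out astrocytes and neurons, and the part of their RNA in the level of Ednrb was not tested.

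Gucy1b1 stood at 38.1% and 33.6% of the pericyte mean in the controls and at 32.9% and 30.8% after tamoxifen. Gucy1a1 stood at 19.9% and 21.6%, then at 28.1% and 32.7%. So against this list, chosen as the closest, Gucy1b1 was lower and Gucy1a1 higher in both tamoxifen libraries than in both controls. The 8 pericyte genes summed to 33171 and 61503 normalized counts in the controls and to 45614 and 86007 after tamoxifen, with Rgs5 as the most abundant (21377 on average in the controls, 22300 after tamoxifen). Library 2 exceeded library 1 in both groups for this list, with a median ratio of 1.97 in the controls and 2.03 after tamoxifen, and it did so for Gucy1a1 (2.11 and 2.17) and Gucy1b1 (1.72 and 1.74). By the median ratio it also did so in other lists, among them smooth muscle (1.82 and 1.55). The smooth muscle list was the next closest to Gucy1b1, with a range of 0.764, and the microglia and macrophage list to Gucy1a1, with 1.25. The same sort would be expected to leave out pericytes, and the part of pericyte RNA in these values was not tested.

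Ptgs1 stood at 478% and 637% of the oligodendrocyte mean in the controls and at 613% and 541% after tamoxifen, and at 773% and 417%, then 470% and 455%, of the platelet and megakaryocyte mean. Of the oligodendrocyte genes, Cnp was the most abundant, with 954 normalized counts on average in the controls and 2504 after tamoxifen, and the list summed to 1103, 1386, 5345 and 5878 over the control and then the tamoxifen libraries. Platelets are known to carry cyclooxygenase 1, and the platelet and megakaryocyte genes summed to 399 and 675 in the controls and to 3329 and 2569 after tamoxifen, led by Itga2b in the controls (318 on average) and Ppbp after tamoxifen (977), with Gp1bb not listed in the table. Microglia and macrophage genes summed to 2385, 3610, 5355 and 4617 in the same order. A sort for CD31+CD45- cells would be expected to leave out oligodendrocytes, microglia and macrophages. Which cells carried the Ptgs1 RNA, the sorted endothelium included, was not tested.

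The remaining lists had these most abundant genes, as mean normalized counts in the controls and then the tamoxifen libraries. The fibroblast list was led by Col1a2 (1167) and Col1a1 (26538), and the neuron list by Snap25 (293) and Tubb3 (5324). The choroid plexus list was led by Ttr (1950.4 and 24299.8), and the neutrophil list by S100a9 (82.5 and 32215). Ttr differed widely between libraries of a group, with 793 and 3108 in the controls and 7070 and 41530 after tamoxifen. The pluripotent list was led by Dppa4 (39.4) and Dppa5a (7865), and the leukocyte list by Laptm5 (572) and Coro1a (3210). None of these lists was the closest to a member.

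**Figure D3:**
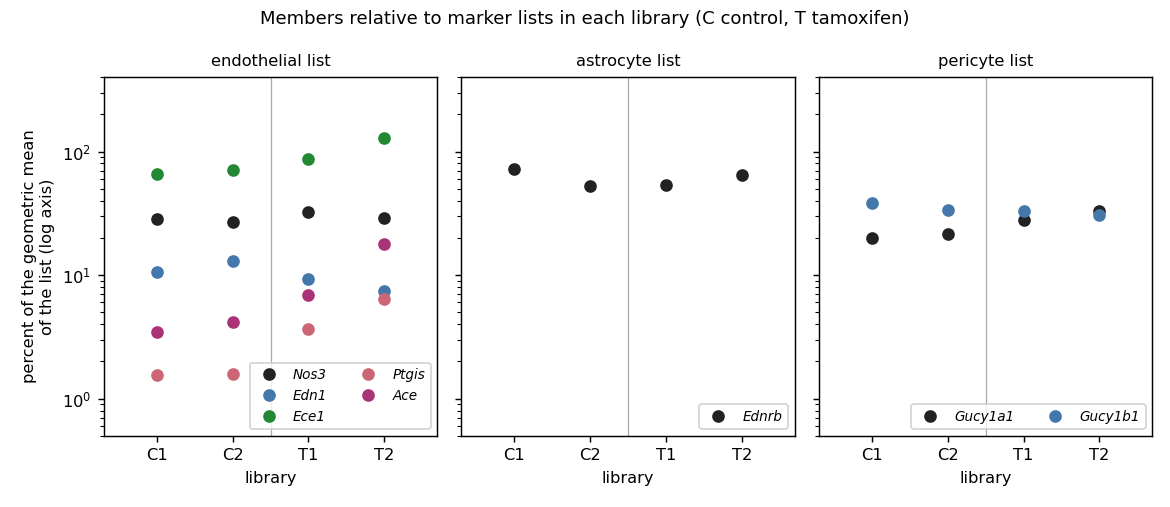
Percent of the geometric mean of a marker list (log axis) at which members stood in control libraries C1 and C2 and tamoxifen libraries T1 and T2. Nos3 ranges from 27.1% to 32.1% of the endothelial list, Ednrb from 52.4% to 71.6% of the astrocyte list and Gucy1b1 from 30.8% to 38.1% of the pericyte list. Against the endothelial list Nos3, Ece1, Ptgis and Ace are higher in both tamoxifen libraries and Edn1 is lower in both. Against the pericyte list Gucy1b1 is lower in both and Gucy1a1 is higher.

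The single genes most like each member were sought among 168 genes of the other lists, by the Euclidean distance between log2 values over the 4 libraries, each centred on its gene's mean. Nos3 was nearest to Tie1 (0.103) and Sox17 (0.121), Edn1 to Robo4 (0.382) and Flt1 (0.415), and Ece1 to Cav1 (0.215) and Abcc4 (0.247). Ednrb was nearest to Pde9a (0.277) and Slc1a2 (0.585), Ptgs1 to Hpgd (0.140) and Laptm5 (0.499), and Ptgis to Spr (0.275) and Slco2a1 (0.355). Gucy1a1 was nearest to Ednra (0.296) and Abcc9 (0.300), and Gucy1b1 had Myl9 (0.294) among its nearest genes. Ace had the most distant neighbours, Apln (0.629) and Ddah1 (0.636). With 2 groups of 2 libraries, a small distance says only that the group difference and the differences within groups were alike.

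The members lie on 7 chromosomes of GRCm39. Gucy1b1 (chr3:81939312-81982022) and Gucy1a1 (chr3:81999733-82053216) are neighbours on the minus strand, 17.7 kb apart, with no annotated gene between them. Ptgs1 (chr2:36120438-36142287) and Ptgis (chr2:167033725-167083018) share chromosome 2 at a great distance. The others are Nos3 (chr5:24569787-24589475), Edn1 (chr13:42446301-42461466), Ece1 (chr4:137589530-137692542), Ednrb (chr14:104052053-104081900) and Ace (chr11:105858469-105880790). The libraries were made with a stranded kit, but the strand setting of the authors' counting is not stated, and genes on the opposite strand overlap Nos3, Edn1, Ece1, Ptgs1, Ptgis and Ace. At Nos3 these are Gm15587, with 852 normalized counts on average in the controls and 168 after tamoxifen, and Atg9b, with 56.0 and 268, both far below Nos3 itself.

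Promoters of the members were taken from RefSeq on GRCm38.p6, in which 7 of the 9 genes matched by symbol with 12 entries, Nos3 and Ptgis being the genes with no entry. Ece1 has 4 of these entries, and 2 of them overlap. The 250 bases before the start were searched on both strands for GGAA (the core bound by ETS factors), CACCC (KLF and Sp factors), AGATAA (bound by GATA factors), TATAAA (the box bound by the general transcription machinery), CCAAT (nuclear factor Y) and GGGCGG (the box bound by Sp factors). GGAA was in 8 of the 12 windows, beside 93.4% of all 32851 promoters of this length, and CACCC was also in 8, beside 52.0%. CCAAT was in 6 (33.8% of all promoters), GGGCGG in 5 (32.7%), TATAAA in 1 (12.4%) and AGATAA in 0 (9.99%). The windows of Edn1 (lower), Ednrb (higher) and Ptgs1 (higher) are shown 5′ to 3′ on the strand of the gene, because each has 1 entry and they stand for both directions. Capitals mark GGAA or CACCC in either orientation, as TTCC or GGGTG on the other strand, and a match is a run of letters and not a known site. Edn1 and Ednrb have both motifs and Ptgs1 has GGAA alone, so these letters do not part the lower gene from the higher ones.
Edn1, chr13:42301226-42301475, plus strand: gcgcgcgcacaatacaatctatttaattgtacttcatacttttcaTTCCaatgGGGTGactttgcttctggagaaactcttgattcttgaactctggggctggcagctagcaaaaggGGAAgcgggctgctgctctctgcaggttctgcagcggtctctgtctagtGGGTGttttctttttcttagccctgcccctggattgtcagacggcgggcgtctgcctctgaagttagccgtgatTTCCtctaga
Ednrb, chr14:103843702-103843951, minus strand: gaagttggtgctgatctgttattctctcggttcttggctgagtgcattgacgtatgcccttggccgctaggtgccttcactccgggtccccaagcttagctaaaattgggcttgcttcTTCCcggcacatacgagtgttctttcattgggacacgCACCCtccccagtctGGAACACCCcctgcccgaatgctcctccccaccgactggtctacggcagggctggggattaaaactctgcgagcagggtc
Ptgs1, chr2:36230176-36230425, plus strand: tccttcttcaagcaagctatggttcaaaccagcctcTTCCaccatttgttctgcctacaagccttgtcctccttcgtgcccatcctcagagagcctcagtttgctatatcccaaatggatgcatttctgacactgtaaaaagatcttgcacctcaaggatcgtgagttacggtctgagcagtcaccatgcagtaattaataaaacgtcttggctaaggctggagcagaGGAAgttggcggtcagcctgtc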

How the data were processed

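RNA of sorted brain cells was sequenced in 2 control and 2 tamoxifen libraries. The authors aligned reads to GRCm39 with STAR 2.7.10a and normalized with DESeq2 1.36.0, and the deposited values give a signal for each gene, the read count over a factor for the library. All values were whole reads over that factor (tolerance 0.01), so reads were recovered. Tests used limma 3.58.1 in R 4.3.3 (lmFit, eBayes with trend, no replicate term). Other settings tried were a pseudocount of 0.5 or 5, a minimum mean of 0 or 100, scaling to equal totals, to quantiles or to the endothelial list, eBayes without trend, a block for the replicate number, DESeq2 1.42.0 and edgeR 4.0.16 on the reads, 1 library fewer, and calls by adjusted p only. Loci and transcript lengths came from GENCODE M39.

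The members, lists and the rule for naming genes were chosen with earlier results of these data known. Named are the members, Mgp, direct partners whatever their result, called pathway genes that average 1000 normalized counts or more in a group, the most abundant genes of the marker lists and those at or under 3 reads, and the 2 nearest genes to each member. Some genes that this rule names are not reported here.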

Additional observations from a re-analysis of the deposited data

How the results depend on the processing

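Over the 9 members and 15 alternatives, 120 of 135 values kept their direction and their side of the limits, and Ednrb and Ptgs1 did so in all 15. With the endothelial list as scale, the log2 fold change was 0.14 for Nos3, -0.50 for Edn1, 0.62 for Ece1, 1.62 for Ptgis, 1.55 for Ace, 3.60 for Gucy1b1 and 2.61 for Mgp, 0 members were called lower and 6 higher, and 17944 genes were called. That scale moves the median of all genes from 0.05 to 3.05 by its construction. At equal totals, which move it by 0.47, Ptgis had -0.91, Ace -0.98, Gucy1b1 1.07 and Mgp 0.079, and 3 members were called lower. Quantile normalization moves it by -0.25, and Gucy1a1 had 0.96. Of all calls, 35.9% were lower on the deposited scale, 20.3% at equal totals and 52.8% after quantile normalization. Gucy1a1 kept 1.31 but was not called with no filter (adjusted p = 0.0555) or no trend (adjusted p = 0.131), in a range of adjusted p from 4.5e-08 to 0.381. Leaving out 1 library gave Gucy1a1 0.76 to 1.87 and 4979 to 10001 called genes, with the lone library assumed to vary like the other group. The count was 5811 without tamoxifen library 1 and 4979 without tamoxifen library 2. A filter at 100 left 5934 calls because fewer genes were tested. DESeq2 called 8740 genes, edgeR 9241, and the replicate block 9525, a number that the labels do not describe as a pairing. Apart from the changes by construction, the cause was not tested. Ece2, Ptgir, Agtr1a, Bdkrb2, Prkg2 and Mme had under 100 normalized counts in each control library, and whether depth limited their fits was not tested.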

Other observations

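A list of 14 genes of other vasoactive peptides was also read. Of these 13 are in the table and 11 were tested, with 5 called lower, 3 higher and 3 not called, and a median log2 fold change of -0.996 on the deposited scale. Of all tested genes, 16.0% were called lower and 28.6% higher. The adrenomedullin gene Adm had 3953 and 3039 normalized counts in the controls and 788 and 544 after tamoxifen (log2 fold change -2.40). Its receptor parts Calcrl (-2.79) and Ramp2 (-2.82) and the natriuretic peptide receptor gene Npr1 (-2.19) were called lower too. Relative to endothelial genes these had 0.60 for Adm, 0.21 for Calcrl, 0.18 for Ramp2 and 0.81 for Npr1, none of them called. The apelin receptor gene Aplnr had -1.34, and was not called at equal totals (-0.86) or without tamoxifen library 2 (-1.04), and was called higher relative to endothelial genes (1.67). The 3 higher genes, named after their values were seen, were Ramp1, another partner of Calcrl (2.698), the receptor gene Npr3 (2.19) and the peptide gene Apela, whose controls were both at or under 3 reads, so that the size of its change is not given. Ramp1 and Npr3 were not called with either tamoxifen library left out, Apela not without tamoxifen library 2, and Npr3 not after quantile normalization (0.99). Nppa is not listed.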
